A study of Homo sapiens with 6 samples.

Results

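The genes described here charge transfer RNA with amino acids or modify and process it. They were measured by RNA sequencing in ME-1, a human acute myeloid leukaemia line with inv(16), the inversion that fuses CBFB to MYH11. Cells had received AI-10-49 at 1 µM for 6 h (3 libraries), or the solvent DMSO alone for 6 h (3 libraries), in independent experiments per the labels. AI-10-49 is a small molecule that blocks the binding of the CBFβ-SMMHC fusion protein to RUNX1. Both groups carry the inversion and come from the 1 cell line, so no other leukaemia and no cell without the fusion was compared. Rows were chosen by symbol alone: 1 letter followed by ARS, or EPRS, FARSA or FARSB, for the cytosolic synthetases; 1 letter followed by ARS2 for the mitochondrial synthetases; and the starts TRMT, TRNT, PUS, TSEN, ELP or QTRT for modification and processing. They gave 42 of the 6339 rows of the deposited table, for 41 symbols, since WARS2 stands on 2 rows. The classes held 12 cytosolic rows, 12 mitochondrial rows and 18 rows for modification and processing, and all 42 passed the filter on low values. EPRS and FARSB, and all symbols starting with TRNT, gave no such row and were not analysed here. The same holds for the cytosolic synthetases DARS, HARS, KARS, LARS, QARS and RARS. It also holds for mitochondrial ones such as IARS2, TARS2, YARS2, HARS2 and PARS2. Statements on a class below cover only its genes with a row.

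An aminoacyl-tRNA synthetase joins 1 amino acid to the tRNAs that read its codons, with ATP as the energy source. Most amino acids have a cytosolic enzyme and a separate, nuclear-encoded mitochondrial one, while a few genes, such as GARS, serve both compartments. Uncharged tRNA activates the kinase GCN2 and through it the transcription factor ATF4, and several cytosolic synthetase genes are known ATF4 targets. After transcription, tRNAs are trimmed, spliced and chemically modified, which shapes their folding, stability and decoding.

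Values are FPKM, fragments scaled to transcript length and library size, so levels can be set side by side between genes. Log2 fold changes are AI-10-49 minus DMSO on the log2(FPKM + 1) scale, with limma p-values adjusted over all 6230 rows tested and a threshold of 0.05. The labels state no rule by which rows entered the deposited table. Of the tested rows 95.3% passed (46.2% higher, 49.1% lower), the groups did not overlap in 96.2%, and the median log2 fold change was -0.28. The rows may have been chosen on these same libraries, and p-values would then be smaller than in an unselected table. Genes that changed little could then lack a row, which would also affect class medians, shares and counts without overlap. A pass is the usual outcome for a gene of this table, and what follows describes directions, sizes and levels. MYC, as a check of the treatment, stood at 27.9, 23.4 and 25.8 FPKM with AI-10-49, against 235, 233 and 242 FPKM with DMSO. Of 10 genes picked here, not by the labels, as myeloid leukaemia markers, 7 had a row of their own, 6 of them lower with AI-10-49. CD34, MPO and MYH11 were not analysed here. Of 18 markers of B, T, erythroid, fibroblast and epithelial cells, 4 had a row, all 4 lower with AI-10-49. Their summed FPKM was 25.6 to 27.5 with AI-10-49 and 58.7 to 63.9 with DMSO, and their part in the results below was not tested. All libraries come from the 1 cell line, and in bulk RNA fewer cells that express a gene and less of its RNA per cell cannot be told apart.

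AI-10-49 replicate 2 read low in abundant rows. Its highest value in the whole table was 159 FPKM, against 1717 to 2028 FPKM in the other libraries. Its FPKM summed to 129679, against 178151 to 206024. The top of its range was thus compressed, for a reason that was not tested, and fits with all libraries carry this for abundant genes. Its value was below both other AI-10-49 libraries in all 294 tested rows that averaged at least 100 FPKM in those 2, with a median ratio of 0.502 to their mean, and the median ratio was 1.11 in 2171 rows between 1 and 10 FPKM. The cytosolic synthetases are abundant and all 12 read lower in this library than in both others (median ratio 0.61), against 3 of 12 mitochondrial rows (1.04) and 8 of 18 modification rows (0.979). Each change of a cytosolic gene is therefore given with and without this library.

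**Figure D1:**
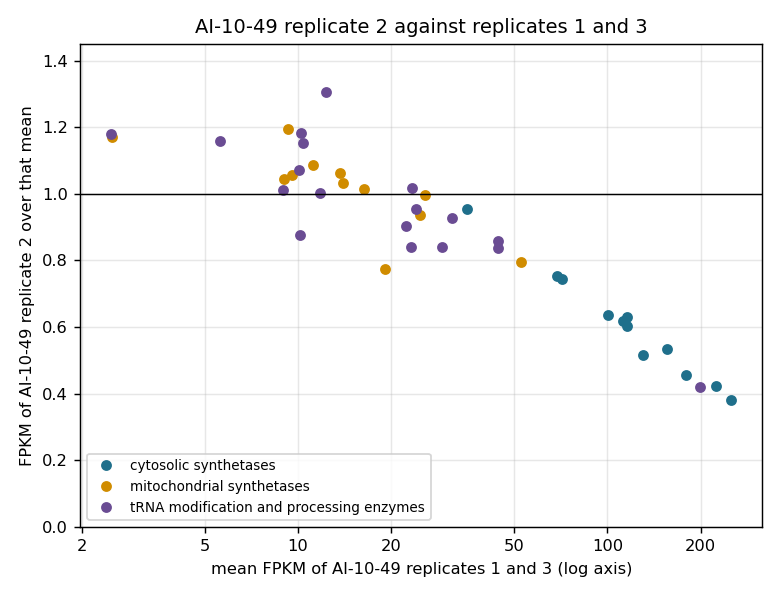
FPKM of AI-10-49 replicate 2 divided by the mean of AI-10-49 replicates 1 and 3 (vertical axis), against that mean (horizontal log axis), 1 point per row for the 42 rows, coloured by class. The ratio lies between 0.773 (FARS2) and 1.31 (TRMT61B) below 30 FPKM and falls to 0.381 for TARS, the most abundant of the 42 rows in those 2 libraries.

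The cytosolic synthetase mRNAs that had a row were mostly higher after AI-10-49. Of 12 rows 9 rose (46.2% of all tested rows did), 2 fell (49.1%) and 1 did not pass. The groups did not overlap in 10 (96.2% of all tested rows). The median log2 fold change of the class was 1.04, and 1.31 without AI-10-49 replicate 2, beside -0.28 and -0.21 over all tested rows. Summed over the 12 genes, the class stood at 1551, 837 and 1573 FPKM with AI-10-49, against 756, 763 and 784 FPKM with DMSO. The sum was above every DMSO library in all 3 AI-10-49 libraries, though only slightly so in replicate 2.

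CARS, which charges tRNA with cysteine, rose most. It stood at 99.9, 64.0 and 102 FPKM with AI-10-49, against 21.0, 21.4 and 22.7 FPKM with DMSO. By the means of all libraries it was 4.07-fold higher. On the log2 scale the difference was 1.95 ± 0.15 (SE; limma, adjusted p = 9.2e-08), and 2.16 without replicate 2. With AI-10-49, CARS ranked 10 among the 42 rows by mean FPKM, and with DMSO it ranked 23 and was the least abundant of the 12 cytosolic genes.

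TARS, the threonyl-tRNA synthetase gene, had 249, 96.0 and 255 FPKM with AI-10-49, against 69.9, 65.5 and 69.1 FPKM with DMSO (log2 fold change 1.41 ± 0.33 SE, adjusted p = 0.00137, and 1.87 without replicate 2). It ranked 1 among the 42 rows with AI-10-49 and 4 with DMSO. WARS, which charges tRNA with tryptophan and is also known as an interferon-induced gene, had 113, 69.5 and 113 FPKM with AI-10-49, against 40.4, 38.9 and 38.3 FPKM with DMSO (1.27 ± 0.17 SE, adjusted p = 1.41e-05; 1.50 without replicate 2). Each library of the treated group lay above each DMSO library in both genes.

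GARS, the glycyl-tRNA synthetase gene that serves cytosol and mitochondria, had 179, 81.8 and 179 FPKM with AI-10-49, against 57.4, 57.6 and 61.5 FPKM with DMSO (log2 fold change 1.22 ± 0.26 SE, adjusted p = 0.000795; 1.59 without replicate 2). AARS, for alanine, had 113, 73.0 and 119.5 FPKM with AI-10-49, against 45.8, 48.4 and 47.2 FPKM with DMSO (1.06 ± 0.17 SE, adjusted p = 8.47e-05; 1.28 without replicate 2). YARS, for tyrosine, had 129, 67.3 and 132 FPKM with AI-10-49, against 50.5, 47.7 and 52.6 FPKM with DMSO (1.05 ± 0.22 SE, adjusted p = 0.000617; 1.36 without replicate 2). None of these 3 genes overlapped between the groups. The 3 libraries of DMSO lay within a few FPKM of each other, and most of the spread was between AI-10-49 replicate 2 and the other treated libraries.

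MARS and IARS encode the methionine and isoleucine enzymes, both of which sit in the multisynthetase complex, an assembly of several synthetases and scaffold proteins. MARS had 157, 82.8 and 154 FPKM with AI-10-49, against 58.4, 62.6 and 61.6 FPKM with DMSO (log2 fold change 1.04 ± 0.23 SE, adjusted p = 0.000894; 1.34 without replicate 2). IARS changed less, at 69.5, 51.8 and 68.2 FPKM with AI-10-49, against 46.1, 47.7 and 43.8 FPKM with DMSO (0.44 ± 0.12 SE, adjusted p = 0.0043; 0.58 without replicate 2). Both rose without overlap between the groups.

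The calls of SARS and NARS depended on the libraries and settings used. SARS charges serine onto its own tRNAs and onto the selenocysteine tRNA. It had 70.6, 52.9 and 71.7 FPKM with AI-10-49, against 49.1, 52.4 and 55.7 FPKM with DMSO. The difference was 0.30 ± 0.13 on the log2 scale (SE; adjusted p = 0.0471), and the groups overlapped. Without replicate 2 it was 0.44 (adjusted p = 6.79e-05), and after quantile normalization of all libraries 0.60. SARS did not pass without any other single library (adjusted p up to 0.176), nor with the filter at 5 FPKM (0.0537), median scaling (0.0600) or no mean-variance trend (0.0525). NARS, for asparagine, had 218, 94.6 and 230.3 FPKM with AI-10-49, against 114, 111 and 111 FPKM with DMSO. It did not pass with all libraries (log2 fold change 0.58, 95% interval -0.19 to 1.35, adjusted p = 0.128), and replicate 2 read below the DMSO libraries. Without that library the log2 fold change was 1.00 (adjusted p = 1.28e-07), and under quantile normalization of all libraries 1.23.

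VARS and FARSA went the other way. VARS, for valine, had 35.5, 33.6 and 35.0 FPKM with AI-10-49, against 40.4, 47.3 and 44.3 FPKM with DMSO (log2 fold change -0.33 ± 0.09 SE, adjusted p = 0.00259; -0.31 without replicate 2). FARSA encodes the catalytic subunit of phenylalanyl-tRNA synthetase, and its partner FARSB was not analysed here. FARSA had 117, 69.8 and 114 FPKM with AI-10-49, against 164, 163 and 176 FPKM with DMSO, and was the most abundant synthetase row with DMSO. It changed by -0.77 ± 0.28 on the log2 scale (SE; adjusted p = 0.0189), and -0.53 without replicate 2 (adjusted p = 2.16e-05). The call was lost when any single DMSO library was left out, with adjusted p from 0.0643 to 0.0809. After quantile normalization of all libraries FARSA changed by -0.21 and VARS by -0.20. In both genes every AI-10-49 library lay below every DMSO library.

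**Figure D2:**
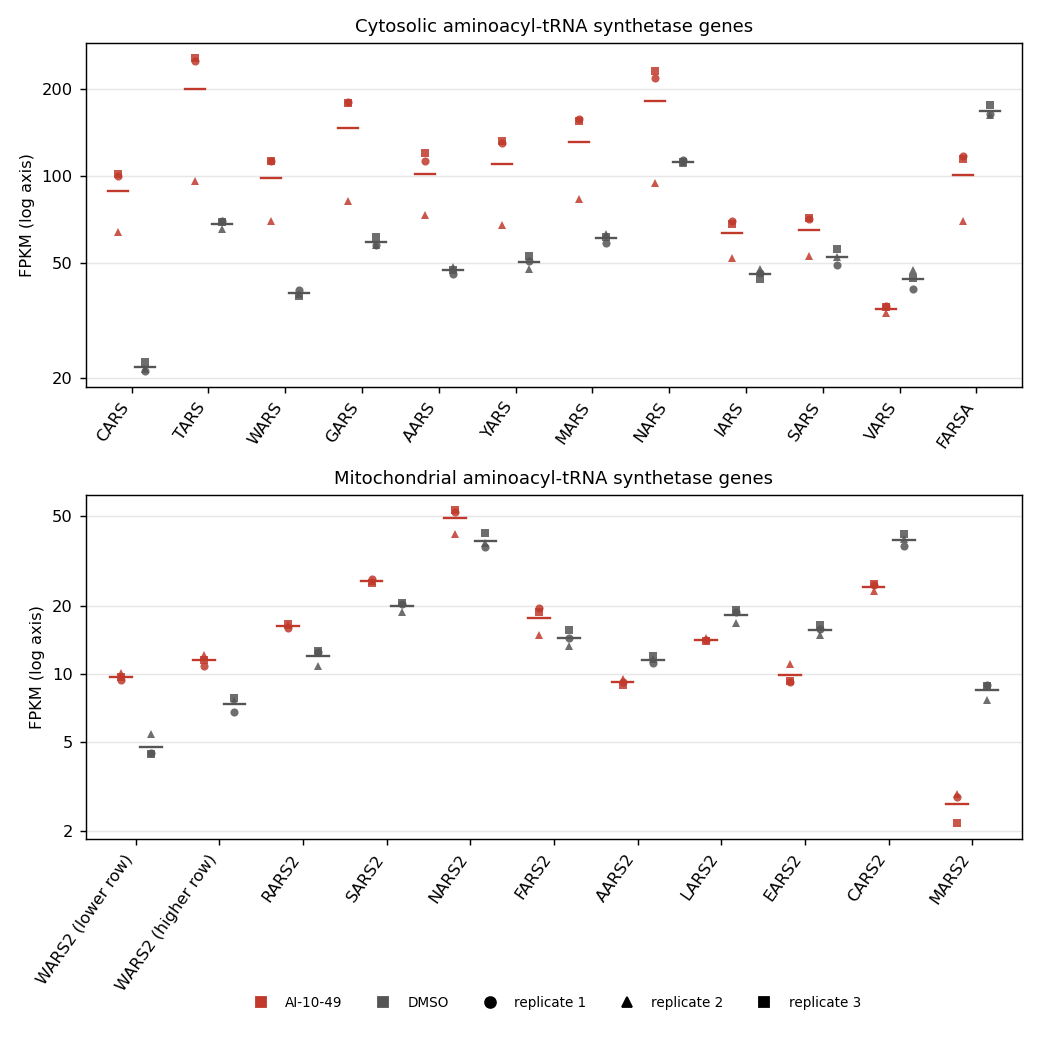
FPKM on a log axis of 12 cytosolic (top) and 11 mitochondrial (bottom) synthetase rows, AI-10-49 in red and DMSO in grey, with a marker shape per replicate and group means as horizontal lines, ordered by log2 fold change. CARS has the widest gap (means 88.5 and 21.7 FPKM) and AI-10-49 replicate 2 is the lowest treated library in all 12 cytosolic genes.

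Upstream sequence is shown as description, and its part in the changes was not tested. RefSeq (GRCh38.p14) gave promoter windows, 250 bases before to 50 after an annotated start, for 30 of the 41 symbols. The letters TGATGNAA, the core of the composite element bound by C/EBP-ATF dimers, ATF4 among them, were searched on both strands. They occur in the windows of 4.46% of 27305 RefSeq genes, and of 4.02% of the table's genes called higher. Among the 10 cytosolic synthetases with a window, 7 held them, and none of the 9 mitochondrial synthetases or 11 modification genes with a window did. These 7 were CARS, TARS, GARS, AARS, MARS, IARS and NARS, while WARS, SARS and FARSA held no match in their windows. A match is a string of letters and not a measured site. The matches of 6 of these genes follow on each gene's own strand, 5′ to 3′, with the matched letters in capitals. They lie at chr11:3057407-3057436 (CARS, minus strand), chr5:33440956-33440985 (TARS, plus), chr7:30594834-30594863 (GARS, plus), chr12:57488053-57488082 (MARS, plus), chr9:92293692-92293721 (IARS, minus) and chr18:57621804-57621833 (NARS, minus).
CARS: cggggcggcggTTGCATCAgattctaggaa
TARS: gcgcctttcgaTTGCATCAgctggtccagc
GARS: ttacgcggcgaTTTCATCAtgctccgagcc
MARS: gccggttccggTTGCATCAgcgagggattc
IARS: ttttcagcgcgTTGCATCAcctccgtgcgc
NARS: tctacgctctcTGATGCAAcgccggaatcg

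In 6 of the 7 genes the element reads in reverse on the gene's strand, and in NARS it reads forward. Positions are counted from the annotated start as 1, with -1 the base before it. The first matched base lay at -2 in CARS, -4 in MARS, -13 in IARS and -33 from the second annotated start of GARS. It was base 3 of the transcript in TARS and base 15 in NARS. The match in AARS, not shown, lay much farther upstream of the start than any of these.

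Mitochondrial synthetase mRNAs split evenly, near the shares of all tested rows (46.2% higher, 49.1% lower). Of 12 rows 6 rose and 6 fell, for 5 and 6 symbols. The groups did not overlap in 10 (96.2% of all tested rows). The median log2 fold change was -0.01, and 0.02 without AI-10-49 replicate 2. Their summed FPKM was 208, 197 and 208 with AI-10-49, against 209, 208 and 223 with DMSO. These mRNAs were mostly less abundant than the cytosolic ones, from 2.66 to 49.0 FPKM by group mean with AI-10-49 and from 4.75 to 39.3 FPKM with DMSO.

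MARS2, the mitochondrial methionine enzyme, fell most. It had 2.85, 2.94 and 2.17 FPKM with AI-10-49, against 8.89, 7.67 and 8.79 FPKM with DMSO (log2 fold change -1.37 ± 0.10 SE, adjusted p = 4.32e-08). CARS2, for cysteine, had 24.9, 23.3 and 24.9 FPKM with AI-10-49, against 36.8, 39.5 and 41.6 FPKM with DMSO (-0.67 ± 0.07 SE, adjusted p = 3.06e-06). Both fell in every treated library while their cytosolic counterparts rose.

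EARS2, for glutamate, is known from inherited white matter disease. It had 9.21, 11.1 and 9.33 FPKM with AI-10-49, against 15.8, 14.8 and 16.4 FPKM with DMSO (log2 fold change -0.62 ± 0.08 SE, adjusted p = 7.11e-06). LARS2, for leucine, and AARS2, for alanine, fell by 0.34 and 0.30 on the log2 scale. AARS2 had 9.20, 9.44 and 8.88 FPKM with AI-10-49, against 11.1, 11.6 and 11.9 FPKM with DMSO. In these 3 genes the treated libraries lay below the DMSO libraries.

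WARS2, the mitochondrial tryptophan enzyme, rose in both of its rows, which the table does not tell apart. The row that was lower with DMSO had 9.36, 10.1 and 9.70 FPKM with AI-10-49, against 4.47, 5.40 and 4.39 FPKM with DMSO (log2 fold change 0.90 ± 0.08 SE, adjusted p = 3.62e-07). The other row had 10.8, 12.2 and 11.6 FPKM with AI-10-49, against 6.79, 7.56 and 7.78 FPKM with DMSO (0.58 ± 0.07 SE, adjusted p = 7.58e-06). The other rises were smaller, between 0.28 and 0.42. RARS2, for arginine, changed by 0.42, and SARS2, for serine, had 26.2, 25.7 and 25.4 FPKM with AI-10-49, against 20.4, 18.8 and 20.7 FPKM with DMSO (0.35). NARS2, for asparagine, had 52.1, 41.8 and 53.1 FPKM with AI-10-49, against 36.4, 37.9 and 41.9 FPKM with DMSO (0.33), and FARS2, for phenylalanine, had 19.5, 14.8 and 18.8 FPKM with AI-10-49, against 14.4, 13.2 and 15.6 FPKM with DMSO (0.28). In NARS2 and FARS2 the groups overlapped. Without AI-10-49 replicate 2 these genes changed by 0.43 and 0.39 (limma adjusted p = 9.3e-05 and 0.000393). NARS2 lost its call without DMSO replicate 1 (adjusted p = 0.0593), and FARS2 without AI-10-49 replicate 1 or DMSO replicate 2 (0.0713 and 0.0532).

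Setting each cytosolic gene against the mitochondrial gene of the same amino acid gave 8 pairs, with WARS used for each WARS2 row. The log2 ratio of (FPKM + 1) was taken within each library, so that a library's scale drops out where it acts equally on both genes. AI-10-49 replicate 2 did not act equally, with median ratios of 0.61 for cytosolic and 1.04 for mitochondrial rows. CARS over CARS2 was 1.96, 1.42 and 1.99 with AI-10-49, against -0.78, -0.85 and -0.85 with DMSO, so the cytosolic mRNA was the more abundant of the pair with AI-10-49 and the less abundant with DMSO. The ratio was higher by 2.62 with AI-10-49 for CARS, by 2.41 for MARS over MARS2 and by 1.37 for AARS over AARS2, and lower by 1.04 for FARSA over FARS2 (difference -1.04). With replicate 2 left out, these 4 differences were 2.80, 2.77, 1.60 and -0.92. In these 4 pairs, and in WARS over the WARS2 row that was higher with DMSO (0.69, or 0.96 without replicate 2), the groups did not overlap. Each of these 5 had p = 0.1 by two-sided exact permutation, which is the smallest that 3 against 3 libraries allow (adjusted p = 0.16 over the 8 pairs).

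The ratio of the other 3 pairs overlapped between the groups. NARS over NARS2 differed by 0.26 and SARS over SARS2 by -0.06 (exact permutation p = 0.4 and 0.9), and the lower WARS2 row gave 0.37 (exact permutation p = 0.3). Without AI-10-49 replicate 2 these differences were 0.56, 0.08 and 0.62. Replicate 2 had the lowest ratio of the 3 treated libraries in all 8 pairs.

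**Figure D3:**
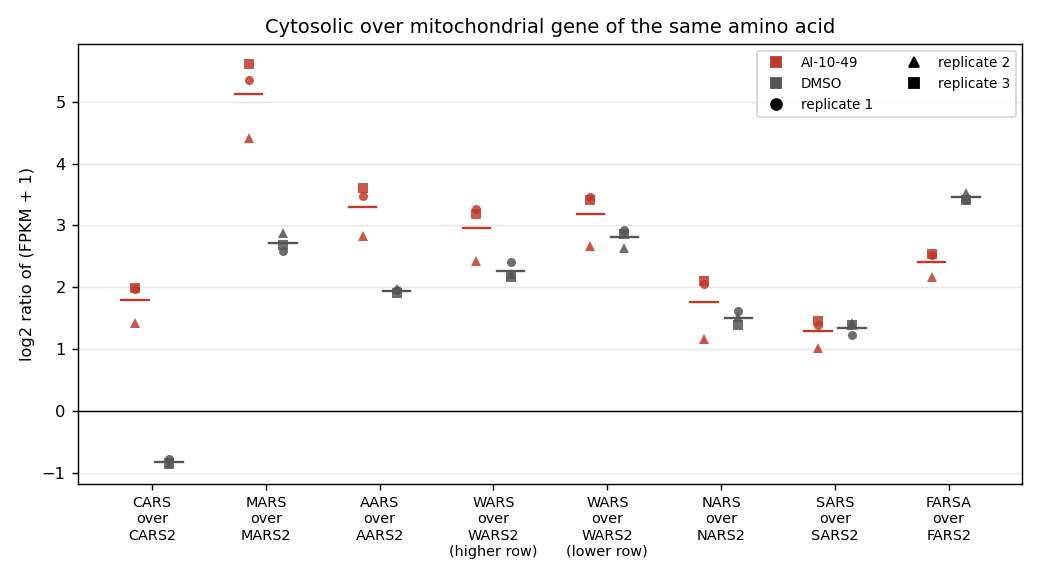
Log2 ratio of (FPKM + 1) between the cytosolic and the mitochondrial synthetase gene of the same amino acid in each library, AI-10-49 in red to the left and DMSO in grey, with group means as horizontal lines. The ratio is higher with AI-10-49 for CARS, MARS and AARS (differences 2.62, 2.41 and 1.37) and lower for FARSA, and the groups overlap for NARS, SARS and the lower WARS2 row.

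The E-box letters CACGTG, which MYC-MAX dimers and other helix-loop-helix factors bind, were searched in the same windows. They occur in 8.77% of the 27305 RefSeq genes and in 16.7% of the table's genes called lower, against 11.7% of those called higher. Of the 11 members with a window that fell 7 held them, and of the 17 that rose 1 did, IARS. The 7 were the mitochondrial genes MARS2, CARS2 and EARS2 and the modification genes PUS7, TRMT61A, TRMT6 and QTRT1. Both motifs were chosen with the direction of these genes known, and neither the protein nor the binding of any factor was measured. The matches in MARS2 (chr2:197705346-197705375, plus strand), CARS2 (chr13:110706501-110706530, minus), EARS2 (chr16:23557348-23557377, minus) and PUS7 (chr7:105522226-105522255, minus) are shown with the E-box in capitals, the first 2 beside the composite element of their cytosolic counterparts above.
MARS2: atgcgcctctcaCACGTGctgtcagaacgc
CARS2: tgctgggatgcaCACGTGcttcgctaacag
EARS2: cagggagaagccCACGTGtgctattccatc
PUS7: gtcgctgcgccgCACGTGtgcgagcccggc

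IARS held both strings, and the 200 bases before its start (chr9:92293698-92293897, minus strand) show the E-box from -186 and the composite element from -13, both in capitals.
IARS: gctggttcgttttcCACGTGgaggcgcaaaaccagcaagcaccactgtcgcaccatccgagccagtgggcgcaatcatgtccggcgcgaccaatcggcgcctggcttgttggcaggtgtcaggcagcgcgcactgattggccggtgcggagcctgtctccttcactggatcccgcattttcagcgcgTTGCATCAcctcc

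Modification and processing mRNAs went both ways with more falls, as did all tested rows. Of 18 rows 7 rose (46.2% of all tested rows did), 10 fell (49.1%) and 1 did not pass. The median log2 fold change was -0.40 beside -0.28 over all tested rows, and the groups did not overlap in 17 (96.2%). Without AI-10-49 replicate 2, 6 rose and 11 fell. The largest falls were in pseudouridine synthases, which turn uridine into pseudouridine within the RNA chain.

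PUS7, which acts on tRNA and mRNA, had 8.72, 9.05 and 9.18 FPKM with AI-10-49, against 24.2, 24.8 and 24.2 FPKM with DMSO. It changed by -1.35 ± 0.06 on the log2 scale (SE; adjusted p = 7.7e-10), with the smallest standard error of the 42. PUSL1, a relative of PUS1, had 8.97, 8.88 and 11.3 FPKM with AI-10-49, against 19.97, 21.95 and 21.996 FPKM with DMSO (-1.07 ± 0.09 SE, adjusted p = 1.46e-07). PUS1 had 22.6, 23.0 and 25.4 FPKM with AI-10-49, against 39.8, 46.5 and 41.1 FPKM with DMSO (-0.81). These 3 fell in every treated library.

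PUS10 and PUS7L, also of the pseudouridine synthase families, rose. PUS10 had 11.6, 11.8 and 12.1 FPKM with AI-10-49, against 7.55, 5.30 and 7.21 FPKM with DMSO (log2 fold change 0.75 ± 0.10 SE, adjusted p = 1.36e-05), and PUS7L changed by 0.46. With AI-10-49 the order of PUS7 and PUS10 turned over: PUS10 over PUS7 was 0.37, 0.35 and 0.36 on the log2 scale with AI-10-49, against -1.56, -2.03 and -1.62 with DMSO. That pair was 1 of 6 pairs of related genes picked after their values were seen. Its exact two-sided permutation p of 0.1 is the smallest possible (adjusted p = 0.12 over the 6).

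Among the methyltransferases, TRMT5, which methylates the guanosine beside the anticodon, had 2.33, 2.94 and 2.66 FPKM with AI-10-49, against 6.47, 6.38 and 6.17 FPKM with DMSO (log2 fold change -1.01 ± 0.08 SE, adjusted p = 1.86e-07). TRMT61A is the catalytic subunit of the nuclear enzyme that methylates adenosine in the T loop, and TRMT6 is its partner. TRMT61A had 10.4, 12.1 and 10.02 FPKM with AI-10-49, against 18.4, 18.03 and 22.2 FPKM with DMSO (-0.79), and TRMT6 changed by -0.29. Both subunits fell. TRMT61B, which does this step in mitochondria, had 12.1, 16.1 and 12.6 FPKM with AI-10-49, against 9.82, 10.5 and 12.9 FPKM with DMSO (0.27 ± 0.11 SE, adjusted p = 0.0274), with overlapping groups. It did not pass without AI-10-49 replicate 2 (0.15, adjusted p = 0.142), nor without DMSO replicate 1 or 2 (adjusted p = 0.108 and 0.0619), nor without the mean-variance trend (0.0815).

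TRMT1L, a relative of the guanosine dimethyltransferase TRMT1, was the largest rise of the class. It had 29.8, 29.1 and 32.9 FPKM with AI-10-49, against 15.4, 14.7 and 14.5 FPKM with DMSO (log2 fold change 0.99 ± 0.07 SE, adjusted p = 3.81e-08). TRMT2A, which methylates uridine, fell by 0.49 on the log2 scale.

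TRMT112 is a small activating partner of several methyltransferases that act on tRNA, rRNA and a translation termination factor. It was the most abundant of the 42 rows with DMSO and did not pass with all libraries. It had 198, 83.7 and 199.98 FPKM with AI-10-49, against 291, 283 and 332 FPKM with DMSO, without overlap (log2 fold change -1.01, 95% interval -2.21 to 0.19, adjusted p = 0.0933). Without AI-10-49 replicate 2 it passed, at -0.60 (adjusted p = 5.8e-05), as it did at -0.24 after quantile normalization of all libraries (0.00322) and without the mean-variance trend (0.0182).

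ELP3, the catalytic subunit of the Elongator complex that starts the modification of wobble uridines, and ELP4 both rose. ELP4 had 29.7, 24.6 and 28.8 FPKM with AI-10-49, against 16.7, 15.1 and 18.1 FPKM with DMSO (log2 fold change 0.70 ± 0.08 SE, adjusted p = 6.06e-06), and ELP3 changed by 0.44. QTRT1 and QTRTD1, the subunits of the enzyme that inserts queuine, fell by 0.37 and 0.43 on the log2 scale. Their ratio differed by -0.06 between the groups (exact permutation p = 0.8).

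TSEN15, a structural subunit of the endonuclease that cuts introns from tRNA, had 43.4, 37.0 and 45.2 FPKM with AI-10-49, against 24.8, 23.7 and 27.4 FPKM with DMSO. It rose without overlap between the groups (log2 fold change 0.70 ± 0.09 SE, adjusted p = 1.05e-05).

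**Figure D4:**
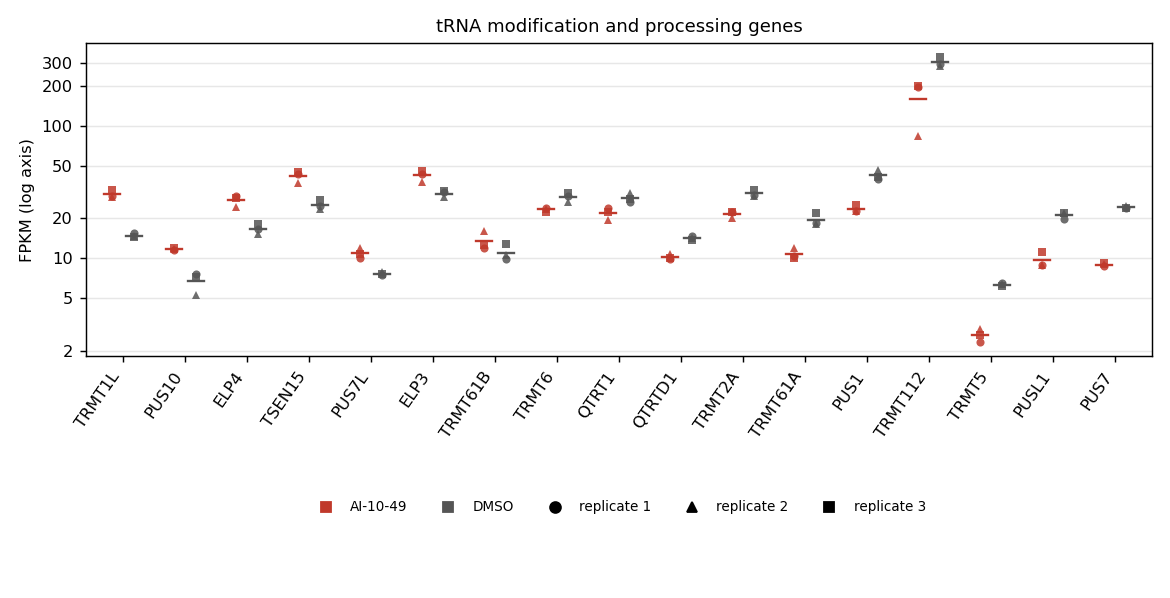
FPKM on a log axis of 17 modification and processing rows, AI-10-49 in red and DMSO in grey, with a marker shape per replicate and group means as horizontal lines, ordered by log2 fold change. PUS7 (means 8.98 and 24.4 FPKM) and TRMT1L (30.6 and 14.9 FPKM) show the widest gaps relative to their spread, and TRMT112 has a wide spread with AI-10-49.

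**Figure D5:**
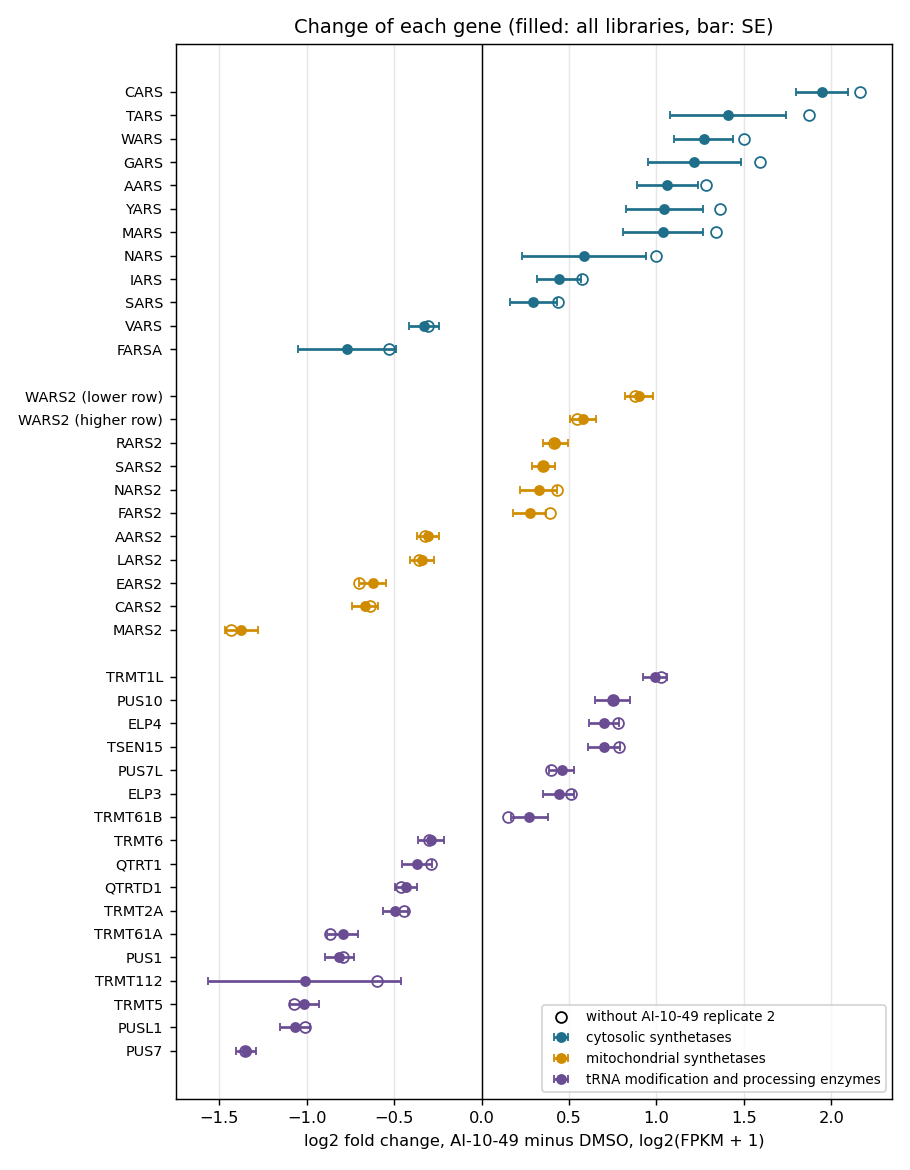
Log2 fold change of each of 40 rows, AI-10-49 minus DMSO on the log2(FPKM + 1) scale, by class, with all libraries (filled, bar = SE) and without AI-10-49 replicate 2 (open). The cytosolic class reaches 1.95 for CARS, the other classes span 0.99 (TRMT1L) to -1.37 (MARS2), and leaving out replicate 2 moves the abundant genes most.

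Other genes of tRNA synthesis, processing and modification were taken from a list of 122 symbols that includes older names. Of these, 72 had a tested row, 28 rose, 41 fell and 3 did not pass. Their median log2 fold change was -0.33, near the -0.28 of all tested rows, of which 46.2% rose and 49.1% fell. The counts by group below are to be read beside those shares. RNA polymerase III and its factors, which transcribe tRNA genes, fell in 10 and rose in 3 of 14. POLR3K, a polymerase subunit gene, had 27.1 ± 2.45 FPKM with AI-10-49 and 73.1 ± 7.51 FPKM with DMSO (SD, n = 3 each; log2 fold change -1.40), and the TFIIIC subunit gene GTF3C6 changed by -1.13. Of 12 genes for end processing and ligation 9 fell and 3 rose, with POP1, a protein of the RNase P complex that trims 5′ ends, at -1.21. Of 27 further modifiers 14 fell and 12 rose.

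Among 7 wobble uridine genes 5 rose and 2 fell. MTO1 and GTPBP3 act together in mitochondria on wobble uridine, and they went in opposite directions. MTO1 had 27.99 ± 0.57 FPKM with AI-10-49 and 12.5 ± 0.40 FPKM with DMSO (SD, n = 3 each; log2 fold change 1.11), and GTPBP3 had 7.03 ± 0.48 FPKM with AI-10-49 and 16.0 ± 0.52 FPKM with DMSO (-1.08). XPO5, an exporter of small structured RNAs, fell by 1.23 on the log2 scale. Synthetase relatives and partners rose in 4 and fell in 3 of 7, and none of the scaffold genes AIMP1, AIMP2 or EEF1E1 was analysed here. Of 3 genes on the list for the bulky adenosine modifications beside the anticodon, 2 fell and 1 did not pass.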

How the data were processed

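RNA from 6 ME-1 cultures was prepared with Illumina's TruSeq chemistry and read in pairs of 90 bp, per the labels. The authors' deposited table holds FPKM in 1 column per library. The tools named in the submitters' processing notes, with no order or role, are Cufflinks 2.2.0, Bowtie2 2.1.0 and Cuffdiff, with build hg19. How rows were selected, whether strand was used and the depth are not given in the sources used here. Count models and intervals that need depth were therefore not used. Columns named control and treated, numbered 1 to 3, were matched to the library titles of that group and number. Replicates are independent experiments per the labels.

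The 6230 rows whose group mean reached 1 FPKM in either treatment (109 did not) were analysed as log2(FPKM + 1) with limma 3.58.1 in R 4.3.3, with a mean-variance trend, two-sided, Benjamini-Hochberg over all tested rows, threshold 0.05. The fit was tested on simulated data in which few rows changed and no library was compressed. That test therefore does not cover the conditions of these data. The 198 rows naming several genes were not members. Every member could be named, with values per library for the 6 largest changes of each class, members that did not pass and the synthetase pairs. Of the other tRNA genes, the 8 largest changes were to be named. A few named items are not reported here. Members, lists and motifs were chosen with earlier results of these data known. Other settings tried were quantile normalization, median scaling, pseudocounts of 0.5 and 0.1, a filter of 5 FPKM or none, a replicate block, no trend, a threshold of 0.01 (for counts) and each library left out. Pairs, motifs and plots used Python 3.11.15, SciPy 1.17.1, pandas 2.3.3 and Matplotlib 3.10.9. Promoter sequences are RefSeq's on GRCh38.p14 and were not joined to hg19 coordinates.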

Additional observations from a re-analysis of the deposited data

How the results depend on the processing

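Of 765 values under the alternatives, for the 42 members, MYC and 8 other tRNA genes, none reversed and 739 kept their side of the threshold. The changes of call among these 51 were in SARS, FARSA, NARS, NARS2, FARS2, TRMT61B and TRMT112. XPOT, named outside them, had an adjusted p of up to 0.0618 with single libraries left out. Quantile normalization moved IARS to 0.70 and NARS2 to 0.51, and with AI-10-49 replicate 2 also left out TARS to 2.12. Cytosolic synthetases that fell numbered 1 at a threshold of 0.01 and 1 to 2 with single libraries left out, against 2, and those that rose numbered 8 to 10. Mitochondrial synthetases numbered 5 to 6 that rose and 6 that fell with single libraries left out, and at least 4 rose under the other settings. Modification genes numbered 6 to 7 that rose and 10 to 11 that fell. After quantile normalization the median over the whole table was -0.06 in place of -0.28, and the cytosolic median was 1.42, so changes there are read relative to that shift. With the replicate number as a block, 9 cytosolic synthetases rose and 2 fell, and no named member changed its call. Deviations of same-numbered libraries correlated by -0.15, 0.147 and 0.247 across genes, so the numbers were not treated as pairs. Depth is unknown, so low values such as MARS2 and TRMT5 rest on the spread between libraries alone.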

Other observations

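PSTK and SEPSECS act after SARS in making selenocysteyl-tRNA. PSTK, the kinase that phosphorylates the serine on that tRNA, had 7.92, 8.03 and 9.43 FPKM with AI-10-49, against 3.09, 2.70 and 2.78 FPKM with DMSO (log2 fold change 1.29 ± 0.08 SE, limma adjusted p = 2.35e-08). SEPSECS, which makes the final conversion and was named after its values were seen, had 8.98, 10.8 and 10.1 FPKM with AI-10-49, against 5.26, 5.09 and 5.51 FPKM with DMSO (0.80 ± 0.08 SE). Neither gene overlapped between the groups, and AI-10-49 replicate 2 was not the lowest treated library in either.

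XPOT, the exporter of mature tRNA, was also named after its values were seen. It had 166, 80.6 and 167 FPKM with AI-10-49, against 78.5, 75.1 and 76.9 FPKM with DMSO, a log2 fold change of 0.76 (limma adjusted p = 0.0152, up to 0.0618 with single libraries left out), or 1.10 without AI-10-49 replicate 2. The 1 row that joins a gene of the rule with another, GTF2H4 and VARS2, was not a member. It had 27.7, 30.3 and 25.6 FPKM with AI-10-49, against 34.1, 36.1 and 34.5 FPKM with DMSO (-0.32), and does not tell which gene the fragments came from.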
